A study of Mus musculus with 4 samples.

Results

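The 4 aquaporins described here, Aqp1, Aqp3, Aqp4 and Aqp5, are the members of this water channel family that are best known from the mammalian lung. They were picked by gene symbol out of 57010 genes, each of the 4 symbols stood on 1 gene identifier, and 8 further aquaporin genes in the same table are described more briefly. Single-cell RNA came from the lungs of C57Bl6/J mice aged 8 weeks, as 1 pool of 6 mice with Shh.Cre and the floxed p73 allele (Cre_Pos), whose floxed part is labelled E7-E9, and 1 pool of 6 littermates homozygous for the same floxed allele without Cre (Cre_Neg). Both pools carry the floxed allele, and the Shh promoter drives Cre in the lung epithelium, so endothelial and mesenchymal cells are not its target. Perfused and digested lungs were depleted of CD45+ cells and enriched for Epcam+ cells before barcoding by SPLiT-seq, a method that labels transcripts with combinations of well barcodes. The cells of both pools were then divided over 4 sublibraries, each with different cells. The sublibraries are technical portions of the 2 pools and not separate animals. With 1 pool per genotype no test of genotype was possible, and p-values are not given. All intervals are at 95% and cover counting error alone.

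Aquaporins are channels that let water cross cell membranes along osmotic gradients, and some of them, among them Aqp3, also pass glycerol. In textbook accounts of the rodent lung, Aqp1 lies in the endothelium of microvessels and in the pleural mesothelium, Aqp3 in basal cells of large airways, Aqp4 in the basolateral membrane of surface airway cells and Aqp5 in the apical membrane of alveolar type 1 (AT1) cells and in airway glands. In the mouse, Aqp5 is also known from alveolar type 2 (AT2) cells, which make surfactant. Next to these genes in the reference annotation stand others of the family, with Aqp2 and Aqp6 on the 2 sides of Aqp5 and Aqp7 beside Aqp3. Aqp2 had 5 transcripts (unique molecular identifiers, UMIs) and Aqp6 had 10 UMIs in all kept cells against 3442 UMIs of Aqp5.

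Cells kept had 500 or more genes, no more than 15% mitochondrial UMIs and no doublet call, 8660 in Cre_Pos and 7696 in Cre_Neg, with median depths of 8219 and 8713.5 UMIs. In each sublibrary the Cre_Pos pool gave 1649 to 2392 cells and the Cre_Neg pool 1472 to 2093 cells. Cells were clustered without the 4 aquaporins and named from marker genes, and the names carry "-like" because they rest on those markers alone. The 4 genes were measured in 21 named classes and 2 clusters without a name, one of which (cluster 9) carried all 10 AT2 markers but was led by the club cell genes Scgb1a1 and Cyp2f2. The pools differed in make-up: ciliated-like cells were 1.45% of the Cre_Pos and 15.9% of the Cre_Neg cells, AT2-like cells 17% and 26.9%, and general capillary-like cells 47.9% and 26.2%. The depletion and the enrichment can set such shares. With 1 pool per genotype, their part cannot be told apart from that of genotype. The pools also differed in sex, which the labels do not give: cells with Xist and no Y-linked UMIs were 82.1% of Cre_Pos and 69.6% of Cre_Neg cells.

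The first comparison was of each gene over all kept cells. Aqp1 had 18080 UMIs in Cre_Pos and 7372 UMIs in Cre_Neg, or 208 and 91.8 CPM (counts per 1e6 UMIs), a log2 ratio of Cre_Pos over Cre_Neg of 1.18 (interval 1.14 to 1.22). Aqp4 was lower in Cre_Pos, with 274 UMIs in Cre_Pos and 1166 UMIs in Cre_Neg, a log2 ratio of -2.20 (interval -2.40 to -2.01). Aqp3 was rare, with 39 UMIs in Cre_Pos and 116 UMIs in Cre_Neg and a log2 ratio of -1.69 (interval -2.25 to -1.15). Aqp5 had 1810 UMIs in Cre_Pos and 1632 UMIs in Cre_Neg, and its log2 ratio of 0.03 had an interval of -0.06 to 0.13.

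The levels were then set to a common make-up of classes. When the levels measured within each Cre_Pos class were weighted by the share of UMIs that the class had in Cre_Neg, Aqp1 came to 97.9 CPM and Aqp4 to 13.6 CPM, near the 91.8 and 14.5 CPM measured in Cre_Neg. Aqp5 came to 23.2 CPM in the same calculation, against 20.3 CPM in Cre_Neg. Aqp3 came to 0.663 CPM and stayed below the 1.44 CPM of Cre_Neg. Free RNA, taken from barcodes with at most 50 UMIs, showed the same order of the pools for Aqp1, with 122 CPM in Cre_Pos and 76.3 CPM in Cre_Neg, and for Aqp4, with 4.55 and 10.7 CPM. Where a class is said below to lie under free RNA, that is a comparison and not a cut-off for background. The CPM of free RNA gives the make-up of loose transcripts, not how much of them a cell took up. Aqp1 in B-like cells was 10.1 CPM in Cre_Pos and 0.724 CPM in Cre_Neg, well under free RNA.

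**Figure D1:**
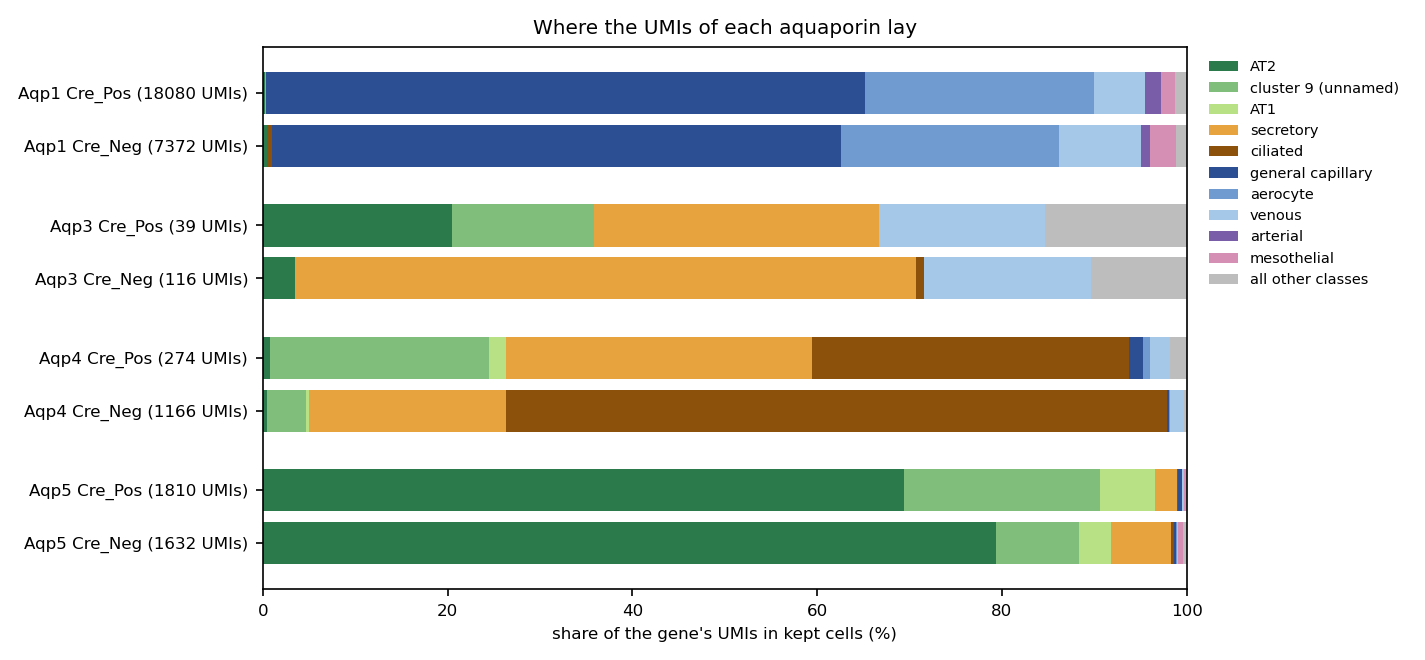
Share of each aquaporin's UMIs (x axis, in percent of its UMIs in kept cells) that lay in each class, with Cre_Pos above Cre_Neg for each gene. Aqp1 lay almost wholly in blood endothelium in both pools, Aqp4 in ciliated-like, secretory-like and cluster 9 cells, and Aqp5 in AT2-like, AT1-like and cluster 9 cells; part of each share is set by how many cells of a class were kept.

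Each gene lay mainly in its own cell types. Over both pools, 96.3% of 25452 Aqp1 UMIs lay in the 4 classes of blood endothelium, and general capillary-like cells alone held 63.9% (interval 63.3 to 64.5). These 4 classes include lymphatic-like cells, which had no class of their own. Of 3442 Aqp5 UMIs, 74.1% (interval 72.6 to 75.6) lay in AT2-like cells, and AT2-like cells, AT1-like cells and cluster 9 together held 94.3%. Ciliated-like cells held 64.4% (interval 61.9 to 66.9) of 1440 Aqp4 UMIs, and with secretory-like cells and cluster 9 the share was 96.0%. Secretory-like cells held 58.1% (interval 49.9 to 65.9) of 155 Aqp3 UMIs. B-like cells, which should lack all 4 genes, had no Aqp3, Aqp4 or Aqp5 UMI in 184 Cre_Pos and 222 Cre_Neg cells, which allows shares of up to 1.63% and 1.35% of cells with a UMI. They had 11 Aqp1 UMIs in Cre_Pos, 10 of them in 1 cell, and 1 in Cre_Neg.

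**Figure D2:**
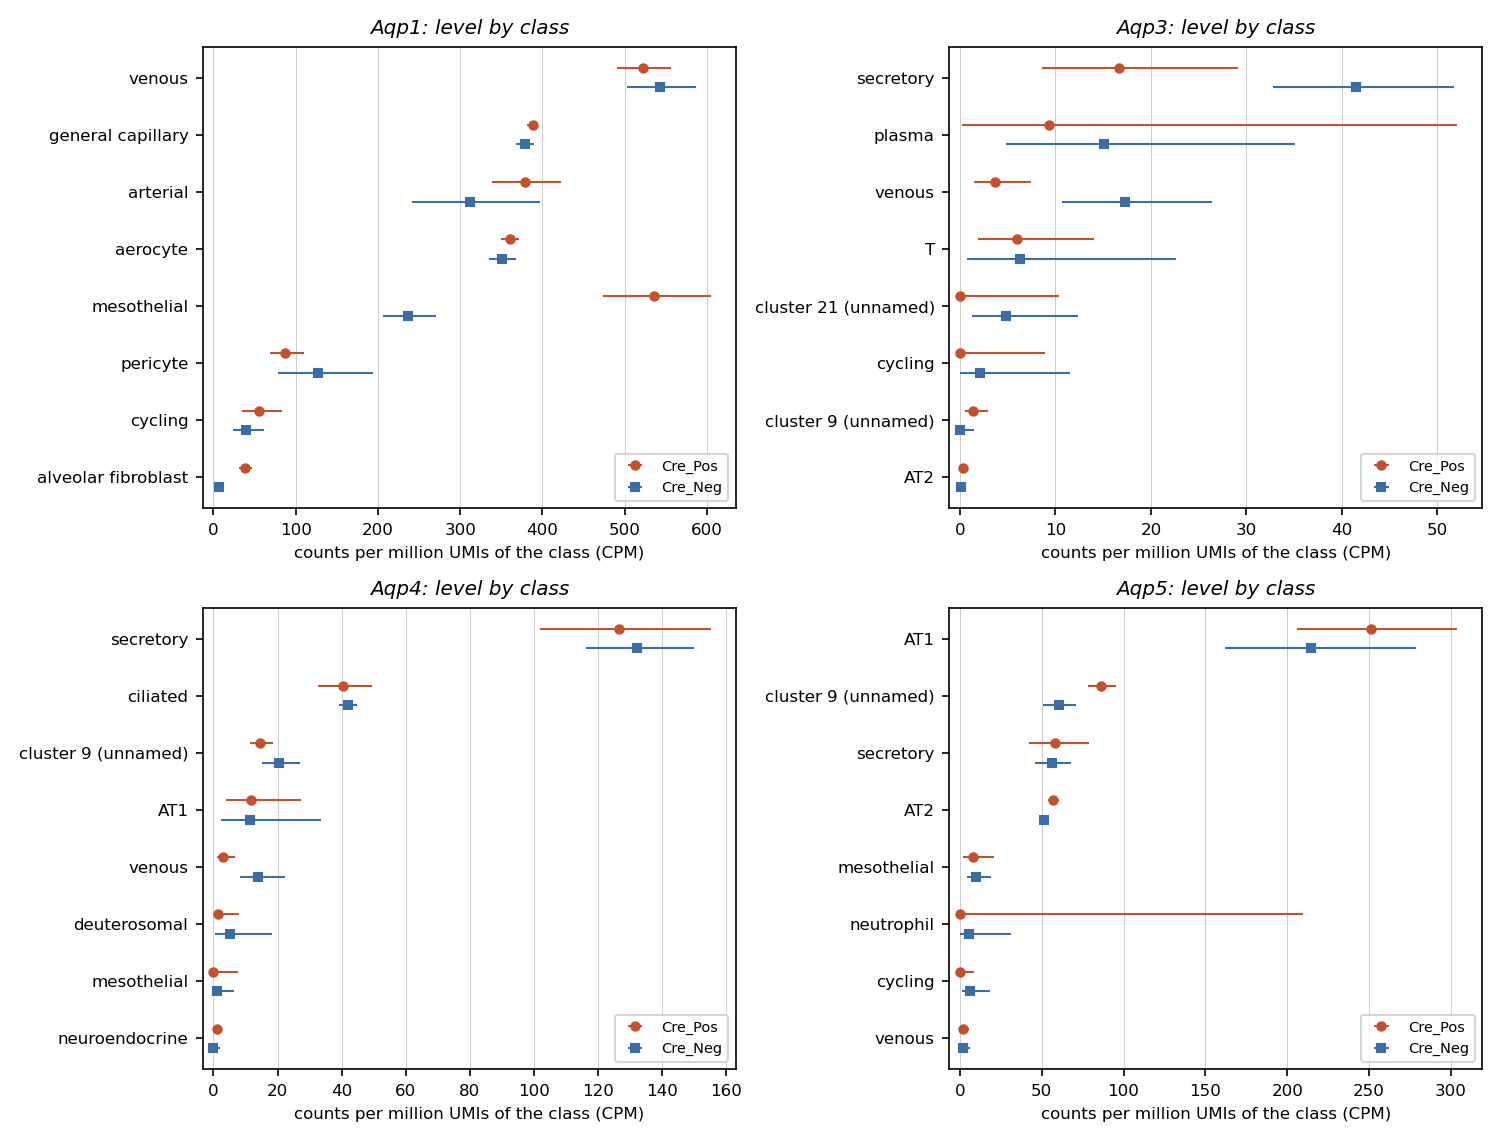
Level of each aquaporin in the 8 classes where it was highest over both pools (x axis, CPM of the class), with Cre_Pos (circles) above Cre_Neg (squares) and exact Poisson 95% intervals as bars; class names rest on markers. Aqp1 in mesothelial-like cells stood at 536 CPM in Cre_Pos and 237 CPM in Cre_Neg.

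Aqp1 was high in every class of blood endothelium, with the highest level in the class of vein markers. Venous-like cells had 523 CPM in Cre_Pos and 543 CPM in Cre_Neg, a log2 ratio of -0.06 (interval -0.20 to 0.09). Their 4 sublibraries gave 629, 535, 535 and 426 CPM in Cre_Pos, and 589, 542, 590 and 459 CPM in Cre_Neg, all of them above the same sublibrary's value in general capillary-like cells. At a finer resolution a venous-like cluster of 283 cells was led by Slc6a2 and Vwf, with 568 CPM of Aqp1 over both pools (interval 538 to 599). A finer cluster of 75 lymphatic-like cells had among its leading genes Reln, Stab2 and Ccl21a, with 404 CPM (interval 360 to 453), and 4 of its cells carried basal cell markers and are described with Aqp3. At the main resolution lymphatic-like cells had no class of their own, and the venous-like levels above include some of them.

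General capillary-like cells, the progenitor-rich type of alveolar capillary, had 388 CPM of Aqp1 in Cre_Pos and 379 CPM in Cre_Neg. By sublibrary the values were 400, 370, 391 and 397 CPM in Cre_Pos, and 398, 382, 376 and 362 CPM in Cre_Neg. The values of the pools overlapped, at 389 ± 13.5 CPM in Cre_Pos and 379 ± 14.8 CPM in Cre_Neg (SD, n = 4 sublibraries each), and the log2 ratio of 0.03 had an interval of -0.02 to 0.08. As counted, 82.1% of Cre_Pos and 75.7% of Cre_Neg general capillary-like cells had an Aqp1 UMI, at median depths of 6650 and 5381 UMIs. After each cell was thinned to 2000 UMIs the shares were 50.3% and 49.9%, with 151 Cre_Pos and 172 Cre_Neg cells too shallow to be used.

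Aerocyte-like cells, the Car4-rich capillary cells that lie against AT1 cells, had 360 CPM of Aqp1 in Cre_Pos and 351 CPM in Cre_Neg, with a log2 ratio of 0.04 (interval -0.04 to 0.12). Arterial-like cells had 379 CPM in 102 Cre_Pos cells and 312 CPM in 34 Cre_Neg cells, and the interval of their log2 ratio ran from -0.11 to 0.69. Over both pools the levels ran from 531 CPM (interval 506 to 557) in venous-like cells to 385 CPM (380 to 391) in general capillary-like, 365 CPM (330 to 404) in arterial-like and 358 CPM (349 to 367) in aerocyte-like cells. The arterial-like level did not differ from its neighbours in this order beyond the intervals. With the 4 classes merged, blood endothelium had 386 CPM in Cre_Pos and 382 CPM in Cre_Neg, and its log2 ratio of 0.02 (interval -0.02 to 0.06) leaves out any difference near 2-fold.

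Within the general capillary class the level of Aqp1 differed between clusters. The cluster led by Plvap and Adgrl4, which also carried 9 of 11 arterial markers, had the highest level, with 426 CPM in Cre_Pos and 428 CPM in Cre_Neg. The other 4 clusters had 321 to 388 CPM in Cre_Pos and 283 to 404 CPM in Cre_Neg. None of the 5 clusters had a log2 ratio whose interval left out 0.

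Mesothelial-like cells, the lining of the pleura, were the one other class with Aqp1 at an endothelial level. They had 536 CPM in 30 Cre_Pos cells, from 263 UMIs, and 237 CPM in 58 Cre_Neg cells, from 209 UMIs. An Aqp1 UMI was found in 23 Cre_Pos and 40 Cre_Neg cells, so the share of positive cells was 76.7% (interval 57.7 to 90.1) and 69.0% (interval 55.5 to 80.5). The log2 ratio was 1.18 (interval 0.91 to 1.45), and 4.43% of the genes tested in the class were at least 2-fold higher in Cre_Pos. The sublibraries disagreed: Cre_Pos had 621, 590, 94 and 599 CPM, and Cre_Neg had 358, 181, 199 and 174 CPM. The third sublibrary thus had the lowest value of all in Cre_Pos, from 5 cells, and the pools overlapped. Without the second or the fourth sublibrary the log2 ratio was 0.97 or 0.95, under 2-fold, and 1 Cre_Pos cell held 65 of the 263 UMIs. Endothelial markers were also seen in this class, where 10 general capillary markers summed to 2399 CPM in Cre_Pos and 1869 CPM in Cre_Neg, which is 11.1% and 8.54% of their level in general capillary-like cells, while Aqp1 stood at 138% and 62.5% of its level there.

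Alveolar fibroblast-like cells showed the largest pool ratio of Aqp1 among classes with at least 20 UMIs, with 91 UMIs in Cre_Pos and 12 UMIs in Cre_Neg, or 38.6 and 6.64 CPM. The log2 ratio was 2.54 (interval 1.67 to 3.54), where 4.9% of genes tested were at least 2-fold higher in Cre_Pos. These levels were below those of free RNA in both pools. The UMIs came from 25 Cre_Pos and 5 Cre_Neg cells, which also carried endothelial markers at 3922 CPM and 1411 CPM, against 53.8 CPM and 20.7 CPM in the fibroblast-like cells without an Aqp1 UMI. At the finer resolution 17 Cre_Pos cells and 1 Cre_Neg cell of this class fell into a cluster named general capillary-like, and these held 67 and 3 of the UMIs. The rest of the class had 24 UMIs and 11.1 CPM in 164 Cre_Pos cells, against 9 UMIs and 5.00 CPM in 137 Cre_Neg cells. The cells named alveolar fibroblast-like at the finer resolution are a smaller set of 135 cells. They had 8 UMIs in Cre_Pos and 4 UMIs in Cre_Neg and a log2 ratio of -0.49 (interval -2.39 to 1.69). The class is a mixed one, as it passed 9 of 10 adventitial fibroblast markers beside 11 of 11 alveolar ones. At the finer resolution a cluster of 166 cells with 9 of 10 adventitial markers was left without a name.

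Pericyte-like cells, which wrap capillaries, had 87.2 CPM of Aqp1 in 82 Cre_Pos cells and 127 CPM in 20 Cre_Neg cells, and the interval of the log2 ratio, -1.25 to 0.23, held 0. The Cre_Pos level was under that of free RNA, and without the first sublibrary the ratio was -1.15 (interval -1.91 to -0.34). General capillary markers stood at 29.3% in Cre_Pos and 19.7% in Cre_Neg of their level in general capillary-like cells, beside Aqp1 at 22.5% and 33.5%, and their part in these levels was not tested. Epithelial classes were near the floor: AT2-like cells had 2.13 CPM in Cre_Pos and 1.27 CPM in Cre_Neg, under the level of free RNA.

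Aqp5 was highest in AT1-like cells. The 51 cells of this class, named from 10 of 10 AT1 markers and led by Rtkn2, Col4a4 and Ager, had 251 CPM in Cre_Pos, from 29 cells, and 215 CPM in Cre_Neg, from 22 cells. A UMI was found in 27 of the Cre_Pos and 20 of the Cre_Neg cells. The 4 sublibraries gave 283, 130, 175 and 370 CPM in Cre_Pos, and 174, 219, 214 and 246 CPM in Cre_Neg. They overlapped, and the log2 ratio of 0.23 had an interval of -0.25 to 0.72. AT1-like cells held 4.74% of the Aqp5 UMIs.

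AT2-like cells carried Aqp5 at a lower level in many more cells. They had 57.0 CPM in 1476 Cre_Pos cells, from 1256 UMIs, and 51.4 CPM in 2074 Cre_Neg cells, from 1295 UMIs. By sublibrary the values were 55.3, 60.6, 57.8 and 53.4 CPM in Cre_Pos, and 49.2, 51.6, 52.1 and 52.9 CPM in Cre_Neg. Each Cre_Pos value was above each Cre_Neg value, with means of 56.8 ± 3.14 and 51.4 ± 1.58 CPM (SD, n = 4 sublibraries each). The difference was small, a log2 ratio of 0.15 (interval 0.04 to 0.26), and 24.6% of the 15224 genes measured in the class had a ratio as high or higher. Neither Aqp1 nor Aqp5, the 2 of the 4 genes with at least 20 UMIs in AT2-like cells, reached a 2-fold difference there, and 1.41% of genes were at least 2-fold higher and 1.76% at least 2-fold lower in Cre_Pos. The AT2-like cells of the pools differed in depth, with medians of 14238.5 and 11445 UMIs, and after thinning to 2000 UMIs the share with an Aqp5 UMI was 11.1% (interval 9.52 to 12.8) in Cre_Pos and 10.4% (interval 9.07 to 11.8) in Cre_Neg.

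**Figure D3:**
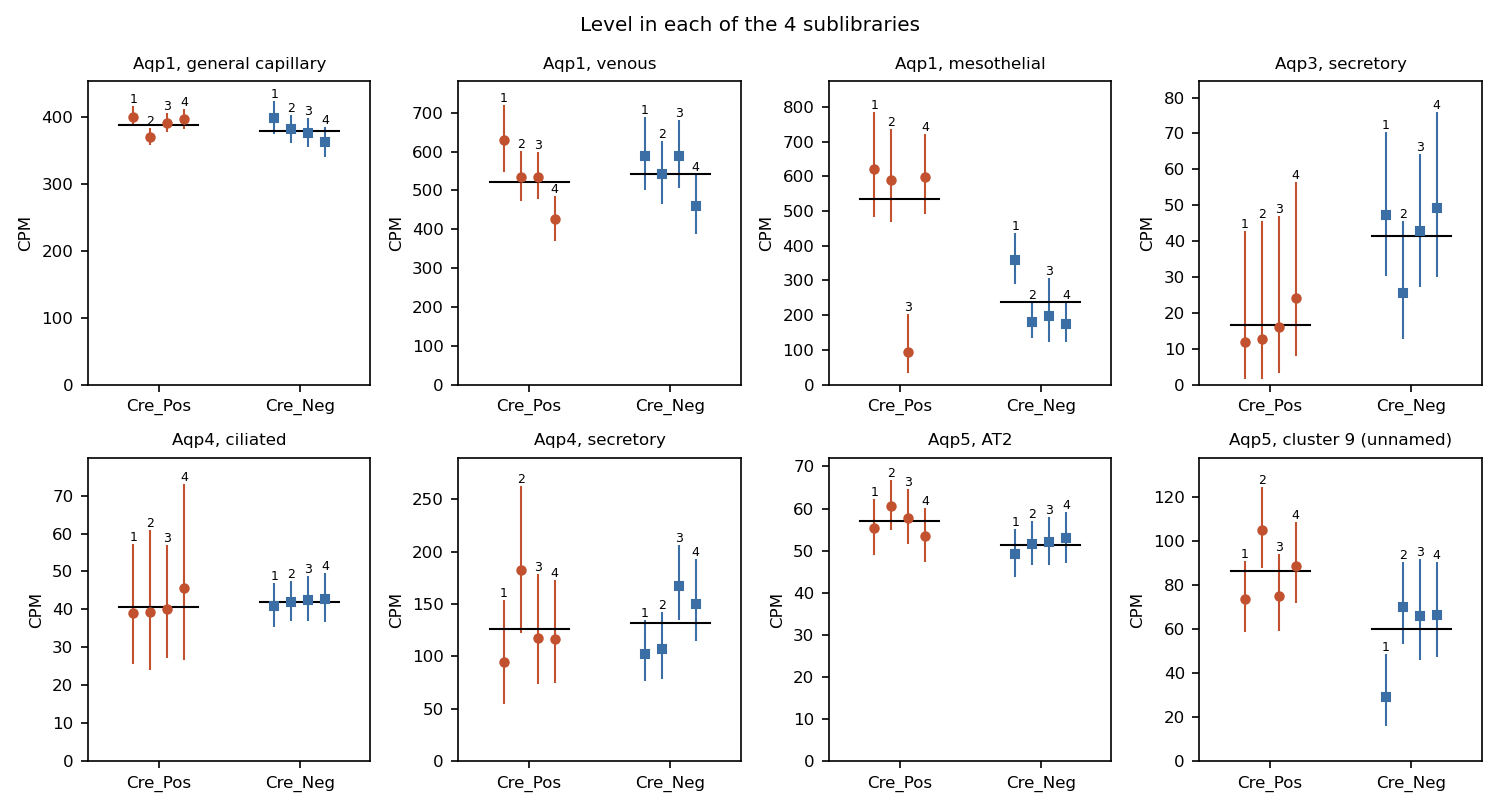
CPM in each of the 4 sublibraries (numbered, with exact Poisson 95% intervals) for 8 pairs of gene and class, Cre_Pos (circles) left of Cre_Neg (squares), and the value over all 4 as a black line; the y axes start at 0. The pools overlap for Aqp1 in capillary and venous cells and for Aqp4, stand apart for Aqp5 in AT2-like cells and in cluster 9 and for Aqp3 in secretory-like cells, and 1 Cre_Pos sublibrary stands far below the rest for Aqp1 in mesothelial-like cells.

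Aqp5 differed more between kinds of AT2-like cell than between the pools. The AT2-like cluster that also carried Ndnf, Ano1 and Cldn18 and 9 of 10 markers of the Krt8 transitional state had 85.8 CPM in Cre_Pos and 73.6 CPM in Cre_Neg. The cluster led by Sftpc, Lyz2 and Slc34a2 and carrying Acoxl had 45.0 CPM in Cre_Pos and 39.9 CPM in Cre_Neg. The cluster led by Sftpc, Sftpb and Sftpa1 had 61.1 CPM in Cre_Pos and 63.5 CPM in Cre_Neg, and its log2 ratio of -0.06 had an interval of -0.24 to 0.13. The cluster with Ndnf and Ano1 was 243 of 1476 AT2-like cells in Cre_Pos and 221 of 2074 in Cre_Neg. Its higher share in Cre_Pos moves with the difference of the whole class, and its part in that difference was not tested. At the finer resolution a cluster of 280 cells led by Ndnf and Ano1 had 100.1 CPM over both pools (interval 90.1 to 111), while a dividing AT2-like cluster of 74 cells led by Mki67 had 17.7 CPM (interval 11.4 to 26.4). Dock2 was among the leading genes of the Mki67-led cluster, as it was in the T-like and B-like clusters. Whether that cluster mixes cell types was not tested.

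Cluster 9, with AT2 markers and the club cell genes Scgb1a1 and Cyp2f2, had 86.4 CPM of Aqp5 in 238 Cre_Pos cells and 60.3 CPM in 179 Cre_Neg cells. The 4 sublibraries gave 73.6, 105, 75.2 and 88.9 CPM in Cre_Pos, and 29.1, 70.2, 66.2 and 66.3 CPM in Cre_Neg. Each Cre_Pos value was the higher one, and the log2 ratio was 0.52 (interval 0.24 to 0.80), a ratio that 15.3% of the genes in this cluster reached, while 5.75% were at least 2-fold higher in Cre_Pos. The make-up of the cluster moved with it: 10 AT2 markers summed to 11210 CPM in Cre_Pos and 7112 CPM in Cre_Neg, and 11 secretory markers to 11744 CPM and 21842 CPM. The part of this shift in the Aqp5 difference was not tested. Among cells with Y-linked and no Xist UMIs, the log2 ratio was -0.23, from 43 UMIs in Cre_Pos and 12 UMIs in Cre_Neg.

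Aqp5 in secretory-like cells was 58.4 CPM in 49 Cre_Pos cells and 56.4 CPM in 162 Cre_Neg cells, near the level of AT2-like cells, with an interval of the log2 ratio from -0.50 to 0.58. Over both pools the order was 237 CPM (interval 202 to 277) in AT1-like cells, 77.2 CPM (70.8 to 84.0) in cluster 9, 56.9 CPM (48.1 to 66.9) in secretory-like cells and 54.1 CPM (52.0 to 56.2) in AT2-like cells, of which the last pair overlapped. Mesothelial-like cells had 8.15 CPM in Cre_Pos and 10.2 CPM in Cre_Neg, below free RNA at 14 and 14.3 CPM. Ciliated-like cells were nearly free of Aqp5, with 9 UMIs in 1353 cells of both pools.

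Among the classes, Aqp4 had its highest level in secretory-like cells, not in the ciliated-like cells that held most of its UMIs. Secretory-like cells, which carry Scgb1a1, Bpifa1 and Muc5b, had 126 CPM in Cre_Pos and 132 CPM in Cre_Neg, from 91 and 249 UMIs, and a log2 ratio of -0.07 (interval -0.43 to 0.29). By sublibrary the values were 95.1, 183, 118 and 116 CPM in Cre_Pos, and 103, 107, 168 and 150 CPM in Cre_Neg, with full overlap. When cells needed at least 1000 genes the log2 ratio was -0.63 (interval -0.99 to -0.27), so its size depends on that limit. An Aqp4 UMI was found in 21 of 49 Cre_Pos and 82 of 162 Cre_Neg cells.

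Ciliated-like cells had 40.5 CPM of Aqp4 in 126 Cre_Pos cells, from 94 UMIs, and 42.0 CPM in 1227 Cre_Neg cells, from 834 UMIs. The 4 sublibraries gave 39.1, 39.4, 40.1 and 45.6 CPM in Cre_Pos, and 40.9, 42.0, 42.5 and 42.8 CPM in Cre_Neg, so that the pools overlapped. The log2 ratio was -0.05 (interval -0.37 to 0.26), against -2.20 over all kept cells, and neither a 2-fold gain nor a 2-fold loss lay within its interval. In this class 3.07% of genes were at least 2-fold higher and 4.67% at least 2-fold lower in Cre_Pos. The share of ciliated-like cells with an Aqp4 UMI was 39.7% (interval 31.1 to 48.8) in Cre_Pos and 35.1% (32.5 to 37.9) in Cre_Neg. Median depths were 16789 UMIs in Cre_Pos and 15516 UMIs in Cre_Neg. With each cell thinned to 2000 UMIs, which left out 6 and 10 shallower cells, the shares were 11.7% (interval 6.53 to 18.8) and 6.57% (interval 5.25 to 8.11), and the log2 ratio of the thinned counts, 15 UMIs in Cre_Pos and 87 UMIs in Cre_Neg, was 0.81 (interval -0.09 to 1.61). At the finer resolution, where the cells that are building cilia joined the class, the log2 ratio was -0.39 (interval -0.71 to -0.08).

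The sexes behind these ciliated-like cells differed. Cells with Y-linked and no Xist UMIs were 101 of the 126 Cre_Pos cells and 180 of the 1227 Cre_Neg cells, and cells with Xist alone were 5 and 896. Among the Y-only cells Aqp4 had 42.0 CPM in Cre_Pos and 60.2 CPM in Cre_Neg, a log2 ratio of -0.52 (interval -0.91 to -0.14). Among the Xist-only cells it had 42.7 CPM in Cre_Pos, from 4 UMIs, and 37.8 CPM in Cre_Neg, from 547 UMIs. The cells were not traced to mice, so that a single mouse or a sex difference within the Cre_Neg pool cannot be told apart from genotype here.

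Ciliated-like cells were not uniform in Aqp4. A cluster of 57 cells that also carried Cyp2f2, a gene of club cells, and 4 of 11 secretory markers had 148 CPM from 3 Cre_Pos cells and 112 CPM from 54 Cre_Neg cells. The main ciliated-like cluster had 37.0 CPM in Cre_Pos and 37.4 CPM in Cre_Neg. At the finer resolution 3 ciliated-like clusters had 81.2 CPM (interval 71.8 to 91.6), 43.9 CPM (39.7 to 48.4) and 26.5 CPM (23.3 to 29.96) over both pools, which did not overlap. The values were 89.5, 51.2 and 24.5 CPM in Cre_Pos, and 80.7, 43.1 and 26.7 CPM in Cre_Neg, in the same order in each pool. A finer cluster led by Cdc20b, Crocc2 and Deup1, genes of cells that are building cilia, had 5.02 CPM in 70 Cre_Pos cells and 11.4 CPM in 70 Cre_Neg cells. These rest on 4 and 6 UMIs, and free RNA had 4.55 CPM in Cre_Pos and 10.7 CPM in Cre_Neg.

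Cluster 9 had a lower level of Aqp4, with 14.6 CPM in Cre_Pos and 20.5 CPM in Cre_Neg and an interval of the log2 ratio from -1.05 to 0.07. Its sublibraries scattered from 8.90 to 23.1 CPM in Cre_Pos and from 6.24 to 35.9 CPM in Cre_Neg. AT1-like cells had 11.7 CPM from 5 UMIs in Cre_Pos and 11.5 CPM from 3 UMIs in Cre_Neg, counts too small to set against free RNA. Over both pools the order was secretory-like at 131 CPM (interval 117 to 145), ciliated-like at 41.9 CPM (39.2 to 44.6), cluster 9 at 16.7 CPM (13.8 to 20.0) and AT1-like at 11.7 CPM (5.03 to 23.0), and only the last pair overlapped. AT2-like cells had 7 Aqp4 UMIs in 3550 cells. An antisense gene on the other strand, AC133525.2, overlaps Aqp4 and had 12 UMIs in all. Whether reads were counted by strand was not stated in the labels or files.

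**Figure D4:**
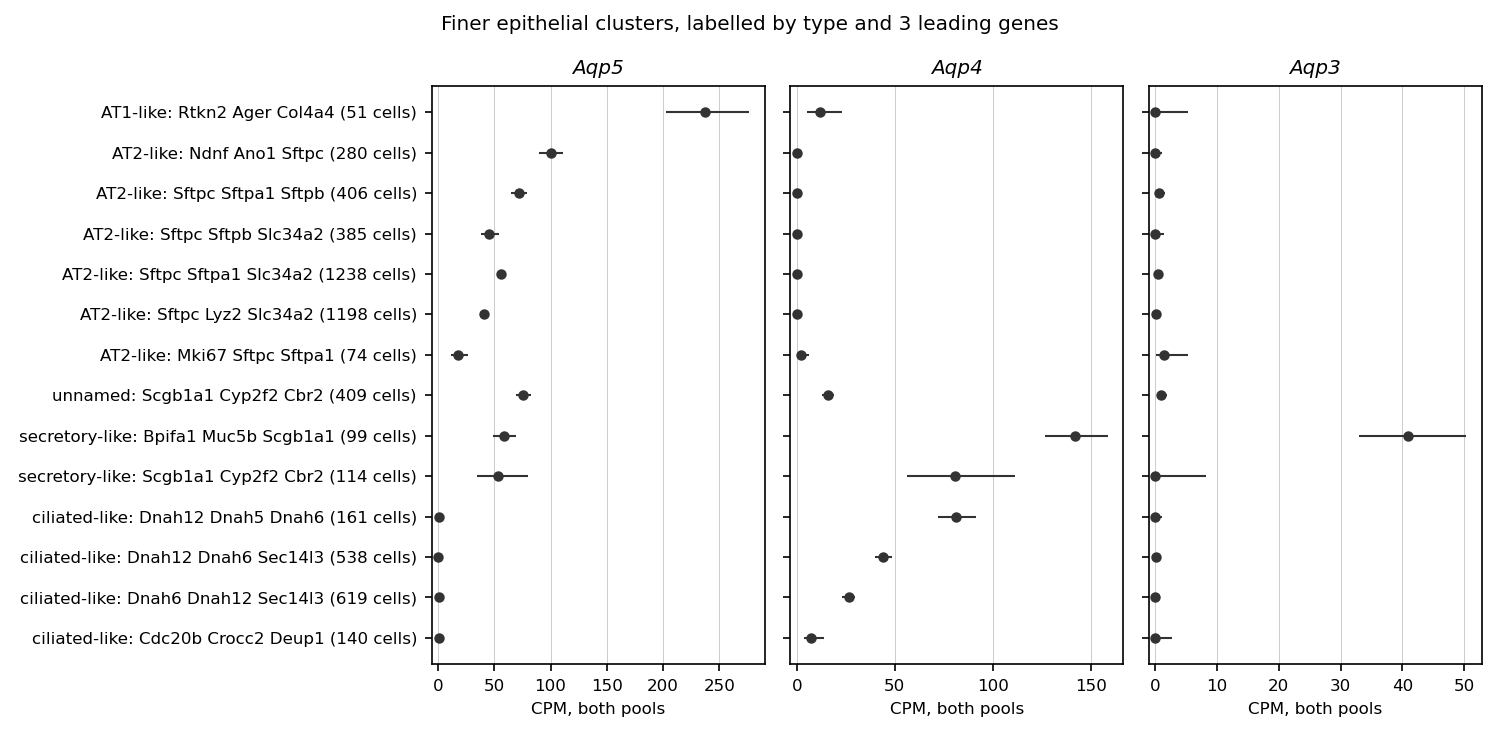
Levels of Aqp5, Aqp4 and Aqp3 (x axes, CPM over both pools, with exact Poisson 95% intervals) in the finer epithelial clusters, each labelled by its type and 3 leading genes. Aqp5 peaks in AT1-like cells at 237 CPM, Aqp4 in Bpifa1-led secretory-like cells at 142 CPM, and Aqp3 is found in the Bpifa1-led cluster at 41 CPM and not in the Scgb1a1-led one.

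Aqp3 was the rarest of the 4 and sat in few cells. Secretory-like cells had 16.7 CPM in Cre_Pos, from 12 UMIs in 5 of 49 cells, and 41.5 CPM in Cre_Neg, from 78 UMIs in 24 of 162 cells. By sublibrary the values were 11.9, 12.6, 16.1 and 24.2 CPM in Cre_Pos, and 47.4, 25.5, 42.8 and 49.2 CPM in Cre_Neg. The pools did not overlap, though the highest Cre_Pos value, 24.2 CPM, was close to the lowest Cre_Neg value, 25.5 CPM. The log2 ratio was -1.31 (interval -2.33 to -0.43), where 5.53% of the genes tested in the class were at least 2-fold lower in Cre_Pos. In Xist-only cells, 5 in Cre_Pos and 68 in Cre_Neg, it was -0.36 (interval -2.28 to 1.08), and in Y-only cells, 15 and 14, it was -2.12 (interval -3.53 to -0.85). At the finer resolution all 90 of these UMIs lay in a cluster of 99 cells led by Bpifa1 and Muc5b, genes of airway defence, with 20.8 CPM in Cre_Pos and 48.2 CPM in Cre_Neg. The other secretory-like cluster, of 114 cells led by Scgb1a1, had none, but its depth allows up to 21.2 CPM in Cre_Pos and 9.81 CPM in Cre_Neg.

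Basal cells, the airway stem cells known for Aqp3, formed no cluster. Cells with UMIs of at least 3 basal markers such as Trp63, Krt5 and Krt15 numbered 7, and they held 61 of the 155 Aqp3 UMIs, or 39.4%. They were chosen after the values were seen. Of these, 3 Cre_Neg cells in the secretory-like class held 33 UMIs. The other 4 lay in the venous-like cluster, where 1 Cre_Pos cell held 7 UMIs and 3 Cre_Neg cells held 21 UMIs, which were all of the Aqp3 in that cluster. Its log2 ratio of -2.25 (interval -3.73 to -0.96), with 4.52% of genes at least 2-fold lower, therefore rested on 4 cells. The same 4 cells held 5 Cre_Pos and 16 Cre_Neg UMIs of Aqp4, which were most of the 6 and 17 UMIs of Aqp4 in the venous-like cluster. Their Aqp4 levels were 439 CPM in Cre_Pos and 365 CPM in Cre_Neg. The 3 Cre_Neg cells in the secretory-like class had 442 CPM of Aqp4, from 23 UMIs. These levels were above that of the whole secretory-like class. Without the 7 cells the secretory-like class had 16.7 CPM of Aqp3 in Cre_Pos and 24.6 CPM in Cre_Neg, from 12 and 45 UMIs, and the log2 ratio of -0.56 had an interval that held 0.

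Small numbers of Aqp3 UMIs were seen elsewhere. T-like cells had 7 UMIs in 6 cells and plasma-like cells 6 UMIs in 4 cells over both pools. Cluster 9 had 6 UMIs, all in Cre_Pos. AT2-like cells had 8 UMIs in Cre_Pos and 4 UMIs in Cre_Neg, each in a cell of its own, so that 0.542% of Cre_Pos and 0.193% of Cre_Neg cells had one. In the 14 classes without any Aqp3 UMI the largest was general capillary-like, where 0 of 4148 Cre_Pos and 0 of 2015 Cre_Neg cells had a UMI, which allows shares of up to 0.0723% and 0.149%.

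The 3 epithelial genes met in secretory-like cells. All of Aqp3, Aqp4 and Aqp5 were found in 5 of 49 Cre_Pos and 16 of 162 Cre_Neg cells of that class, and the 5 Cre_Pos cells were all of those with an Aqp3 UMI. The Cre_Neg cells include the 3 with basal markers, of which 3 had Aqp3 and Aqp5 and 2 had Aqp4. Such counts also depend on depth, which was not evened out here. The median cell had 2.67 times the median UMIs of its sublibrary in the Bpifa1-led finer cluster and 0.39 times in the Scgb1a1-led one. Aqp4 and Aqp5 were found together in 15 Cre_Pos and 40 Cre_Neg secretory-like cells, and in 19 Cre_Pos and 13 Cre_Neg cells of cluster 9. No cell of cluster 9 had all 3 genes. In ciliated-like cells Aqp4 was accompanied by Aqp5 in 1 Cre_Pos and 3 Cre_Neg cells, and in AT2-like cells Aqp5 was accompanied by Aqp4 in 2 cells of each pool.

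The pools were then compared over every class. The 4 genes had at least 20 UMIs in 20 pairs of gene and class, of which 2 were at least 2-fold higher in Cre_Pos, 3 at least 2-fold lower and 15 under 2-fold. In 12 of the 20 the interval of the ratio held 0. Among all genes with at least 20 UMIs, the share at least 2-fold higher and the share at least 2-fold lower in Cre_Pos were 1.84% and 1.41% in general capillary-like, 2.05% and 1.6% in aerocyte-like, 2.47% and 4.52% in venous-like and 9.77% and 3.96% in arterial-like cells. They were 5.11% and 3.72% in AT1-like cells, 5.75% and 2.95% in cluster 9, 3.36% and 5.53% in secretory-like cells and 4.43% and 8.23% in mesothelial-like cells. Fibroblast-like cells had 4.9% and 3.35%, pericyte-like cells 12.8% and 6.99% and dividing cells 12.6% and 7.6%. For merged blood endothelium they were 1.71% and 2.85%. The 2 pairs higher in Cre_Pos were Aqp1 in alveolar fibroblast-like and in mesothelial-like cells. The 3 lower in Cre_Pos were Aqp3 in secretory-like cells and Aqp3 and Aqp4 in the venous-like cluster.

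**Figure D5:**
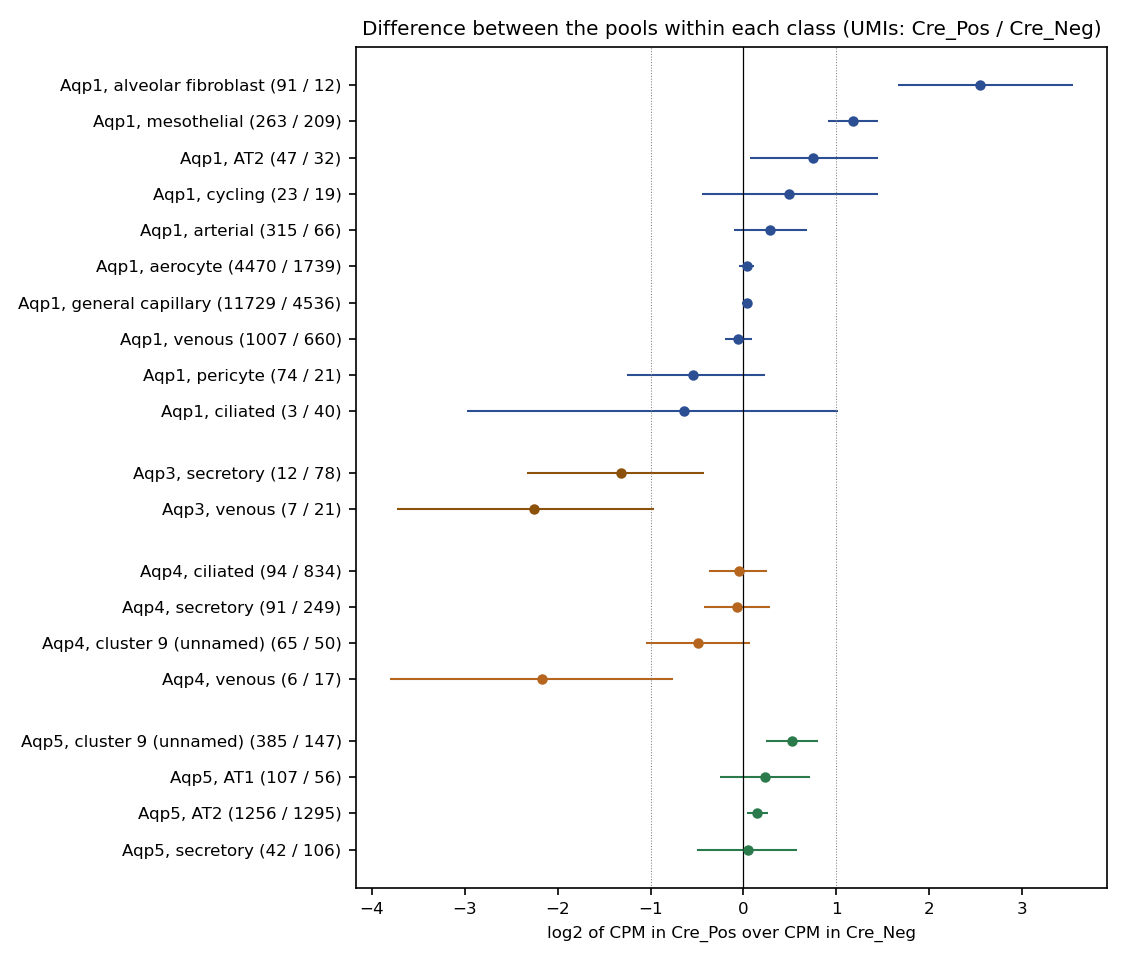
Log2 ratio of CPM in Cre_Pos over CPM in Cre_Neg (x axis) for each gene and class with at least 20 UMIs, with exact conditional binomial 95% intervals; UMIs of Cre_Pos and Cre_Neg stand in brackets and dotted lines mark 2-fold. Classes that hold most of a gene's UMIs lie near 0 for Aqp1, Aqp4 and Aqp5, and the ratios past 2-fold come from few cells.

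The 8 other aquaporin genes had from 0 to 636 UMIs each in kept cells. Aqp11, a channel of intracellular membranes, had 636 UMIs, of which 407 lay in general capillary-like cells, at 9.0 CPM in Cre_Pos and 11.3 CPM in Cre_Neg. Arterial-like cells had 15.6 CPM of Aqp11 in Cre_Pos and 28.4 CPM in Cre_Neg, from 13 and 6 UMIs. Aqp9, which passes glycerol and urea and is known from liver and leukocytes, had 415 UMIs, and 315 of them lay in 82 cells with mast cell or basophil markers, at 790 CPM in Cre_Pos and 780 CPM in Cre_Neg. Neutrophil-like cells had 179 CPM of Aqp9 over both pools, mostly from Cre_Neg, which held 59 of the 63 cells.

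Aqp7, another glycerol channel, had 39 UMIs, and 27 of them lay in the 75 lymphatic-like cells, in 11 cells. These were 24 UMIs in Cre_Pos and 3 UMIs in Cre_Neg. Mip, Aqp2, Aqp6 and Aqp12 had 4, 5, 10 and 2 UMIs in all kept cells, and Aqp8 had none. All 5 Aqp2 UMIs lay in AT2-like cells.

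Genes that work beside aquaporins were read from 7 lists: other aquaporins, the response to tonicity, the dystrophin complex that anchors Aqp4, epithelial sodium and chloride transport, anion channels and sensors of swelling, endothelial barrier and glycocalyx, and glycerol handling. In AT2-like cells none of the 48 listed genes with at least 20 UMIs differed 2-fold, where 1.41% of all genes were higher and 1.76% lower by that much. The medians of the 7 lists ran from -0.12 for the dystrophin complex to 0.32 for endothelial barrier genes on the log2 scale, beside 0.01 for all genes tested. With a minimum of 100 UMIs, which 7 of the barrier genes had, their median was 0.15. Some of these genes were at trace level in AT2-like cells, such as Cldn5 with 1.04 CPM in Cre_Pos and 0.596 CPM in Cre_Neg. The source of these transcripts was not tested. The epithelial sodium channel subunit gene Scnn1g had 8.36 CPM in Cre_Pos and 5.64 CPM in Cre_Neg, the highest log2 ratio of its list at 0.57 (interval 0.24 to 0.89), and Nedd4l, whose product removes that channel from the membrane, the lowest, with 1021 and 1297 CPM and a log2 ratio of -0.34 (interval -0.37 to -0.32). The subunit genes did not move together. Scnn1a had 156 CPM in Cre_Pos and 177 CPM in Cre_Neg, a log2 ratio of -0.18 (interval -0.25 to -0.12). Scnn1b had a log2 ratio of 0.19 (interval -0.01 to 0.39). Sgk1, a kinase that responds to tonicity and to steroids, had 2.95 CPM in Cre_Pos and 5.56 CPM in Cre_Neg, with a log2 ratio of -0.91 (interval -1.36 to -0.48). In blood endothelium 3 of 46 measured genes were at least 2-fold higher in Cre_Pos, where 1.71% of genes were higher by that much, and none was lower. They were Aqp7, whose UMIs lay mostly in the lymphatic-like cells that this merged class includes, the chloride channel gene Cftr, with 72 UMIs in Cre_Pos and 13 in Cre_Neg, and the calcium-activated chloride channel gene Ano1, with 55 and 9 UMIs. At 1.59 and 0.709 CPM for Cftr and 1.21 and 0.491 CPM for Ano1, both levels were low for endothelium. The lowest ratio among the listed endothelial genes was that of Dmd, the dystrophin gene, with 4.85 CPM in Cre_Pos and 8.40 CPM in Cre_Neg and a log2 ratio of -0.79 (interval -1.10 to -0.49). Cldn5, the tight junction gene of endothelium, had 292 CPM in Cre_Pos and 339 CPM in Cre_Neg (log2 ratio -0.21), and Tjp1, which encodes the junction scaffold ZO-1, had 1243 and 1142 CPM (log2 ratio 0.12).

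In ciliated-like cells 6 of 44 measured listed genes were at least 2-fold higher in Cre_Pos and none was lower, where 3.07% of all genes were higher and 4.67% lower by that much. Among them were Ano1, Cftr, the sodium channel subunit gene Scnn1b, the volume-regulated anion channel subunit gene Lrrc8c, and Aqp11. Ano1 had 25.5 CPM in Cre_Pos and 8.51 CPM in Cre_Neg, a log2 ratio of 1.58 (interval 1.13 to 2.02). Lrrc8c had 14.7 CPM in Cre_Pos and 6.14 CPM in Cre_Neg, with a log2 ratio of 1.26 (interval 0.66 to 1.81). Cftr had 11 UMIs in Cre_Pos and 22 UMIs in Cre_Neg, or 4.74 and 1.11 CPM. In AT2-like Cre_Pos cells Lrrc8c had 467 CPM, Cftr 387 CPM, Ano1 229 CPM, Scnn1b 18.9 CPM and Aqp11 0.59 CPM. In ciliated-like cells 10 AT2 markers summed to 271 CPM in Cre_Pos and 228 CPM in Cre_Neg. The 11 secretory markers summed to 1444 CPM in Cre_Pos and 1074 CPM in Cre_Neg. The part of transcripts from other cells, and of the sexes that differed in this class, was not tested. With a minimum of 100 UMIs 2 of 36 genes were past 2-fold. Most of the listed ciliated-like transcripts were near even, such as Scnn1a with 320.5 CPM in Cre_Pos and 339 CPM in Cre_Neg and Hspa4l, a chaperone of the osmotic response, with 859 and 987 CPM.

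The genes closest to each aquaporin over the 31 clusters of at least 50 cells were ranked by Pearson's r on log2 CPM, as a description over clusters that share libraries. For Aqp1 they were Pdgfd (r = 0.97), a growth factor ligand, Unc45b (0.96), a myosin chaperone, Fgd5 (0.96), an exchange factor of endothelial cells, Cdr2l (0.96), and Podxl (0.95), a surface sialomucin. For Aqp5 they were AA986860 (0.97), Gprc5a (0.95), an orphan receptor of lung epithelium, Arhgap8 (0.94), Ager (0.94), the advanced glycation receptor that marks AT1 cells, and the integrin subunit gene Itgb6 (0.94). For Aqp4 they were the substance P receptor gene Tacr1 (0.94), Zfp750 (0.94), Sult1d1 (0.93), Smim31 (0.93) and Cyp2a5 (0.93), whose highest cluster was the secretory-like one or the Cyp2f2-carrying ciliated-like one. For Aqp3 they were Clca1 (0.87), a secreted product of goblet cells, Fer1l6 (0.86), Chad (0.84), Fut9 (0.83) and Gm37245 (0.82), all highest in the secretory-like cluster.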

How the data were processed

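The deposited files hold whole-number UMI counts per gene and barcode, which the authors made from SPLiT-seq (Parse Evercode WT v2) libraries of 1 Cre_Pos and 1 Cre_Neg pool of 6 mice each, in 4 sublibraries. Per the submitters' processing notes the build is GRCm39, while the deposited gene table names mm10, and positions are therefore left out. For the aligner and counter, nothing is given in the sources used here. Barcodes were assigned to pools by the deposited sample labels. Of 647296 barcodes, 16541 had 500 or more genes and no more than 15% mitochondrial UMIs, and 185 doublet calls (1.12%) were removed. Among barcodes with at least 500 genes, 285 well combinations occurred in more than 1 sublibrary. Cells were clustered with scanpy 1.11.5 (3000 variable genes without the 4 aquaporins, 30 components, 15 neighbours, Leiden resolution 1, and resolution 2 for finer clusters) and named by markers, which named 30 of 32 clusters. UMIs were summed per class and pool. Intervals are exact 95% Poisson (levels), Clopper-Pearson (shares) and conditional binomial (ratios), from scipy 1.17.1; a gene was called at 2-fold with at least 20 UMIs over both pools. Sums of 0 carry a limit of 3 counts. On simulated AT2-like counts of 15224 genes, 95.7% of the intervals covered the ratio that was put in. Those counts were drawn from the Poisson model that the intervals assume, so coverage near 95% was set in advance. It checks the calculation, and not variation between cells, mice or pools. Levels are not scaled by transcript length and are compared within a gene only. Besides the 4 genes, the text names the other aquaporins, the 5 genes of highest Pearson r with each on log2(CPM + 10) among genes with at least 500 UMIs, and listed genes past 2-fold or at the ends of their list. The members, markers and lists were chosen with earlier results of these data known. The alternatives were other limits on genes, mitochondrial UMIs and doublets, clustering with the 4 genes or at resolution 2, thinning to 2000 UMIs, each sex call alone, other minimum counts and each sublibrary left out. 1 listed gene is counted but not reported here by name.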

Additional observations from a re-analysis of the deposited data

Results flagged for a closer look

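In 33 groups of 4 sublibraries the highest or lowest value was checked for its distance from the others, and 5 were flagged. For normal values of equal spread, chance alone flags about 1 in 20 such groups. The values here come from counts of unequal size, some of them 0, so that rate need not hold. The check leaves counting error out, and a flagged value can lie within it. Aqp4 in Cre_Pos ciliated-like cells was highest in sublibrary 4, at 45.6 CPM from 17 UMIs, against 39.1 to 40.1 CPM in the others. Aqp1 in Cre_Pos mesothelial-like cells was lowest in sublibrary 3, at 94 CPM from 6 UMIs, and in Cre_Neg it was highest in sublibrary 1, at 358 CPM from 99 UMIs. Aqp5 in Cre_Neg cells of cluster 9 was lowest in sublibrary 1, at 29.1 CPM from 14 UMIs. Aqp3 in the Cre_Neg venous-like cluster was highest in sublibrary 2, at 57.8 CPM from 19 UMIs, all of them in cells with basal markers.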

How the results depend on the processing

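Of the alternatives tried on the leading-class ratios, their UMI shares and the list counts, 95 values were counted as unmoved and 22 as moved. A ratio or share was unmoved if it lay within the interval of the value reported. A list count has no interval, and was unmoved if it stayed near the count reported. For the log2 ratio of Cre_Pos over Cre_Neg, Aqp1 in general capillary-like cells was 0.12 in Y-only cells, Aqp3 in secretory-like cells -0.36 in Xist-only cells, and Aqp4 in ciliated-like cells -0.39 at resolution 2, 0.81 after thinning and -0.52 in Y-only cells. The share of UMIs in the leading class was, for Aqp1, 69.8% with at least 1000 genes, 60.2% with no mitochondrial limit, 61.2% with doublets kept, 71.3% after thinning and 59.8% in Y-only cells. It was, for Aqp3, 76.1% with at least 1000 genes, 35.0% after thinning and 100% in Y-only cells; for Aqp4, 61.1% after thinning and 69.4% in Y-only cells; and for Aqp5, 78.8% and 80.6%. Listed genes past 2-fold numbered 2 in AT2-like cells and 7 in blood endothelium with 1 UMI in each pool, and 0 in blood endothelium and 2 in ciliated-like cells with at least 100 UMIs. With each sublibrary left out, the ratio ranged from 0.00 to 0.07 for Aqp1, -1.53 to -1.11 for Aqp3, -0.08 to -0.04 for Aqp4 and 0.11 to 0.19 for Aqp5, and the share from 63.6% to 64.5%, 53.8% to 69.4%, 62.9% to 66.0% and 73.5% to 75.2%. Among the ratios in further classes 19 moved, and Aqp1 in alveolar fibroblast-like cells, past 2-fold as reported, changed sign at resolution 2, at -0.49. Ratios reported as under 2-fold changed sign too, such as Aqp5 in cluster 9 in Y-only cells (-0.23), Aqp4 there (a lower bound of 0.98) and Aqp5 in secretory-like cells with at least 1000 genes (-0.56). Without the cells with basal markers, chosen after seeing the data, Aqp3 in secretory-like cells was -0.56. The causes were not tested. No ratio is given for Aqp3 after thinning, which left 0 and 7 UMIs, for Aqp1 in the venous class with at least 1000 genes, or for Y-only pericyte-like Aqp1 and AT1-like Aqp5. Each sublibrary held cells of both pools, so the values of the pools can be set side by side within a sublibrary. No paired test of genotype was possible, because each genotype is 1 pool and the sublibraries hold different cells of the same pools.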
